A study of Mus musculus with 4 samples.

Results

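Egr1, Egr2, Nr4a1 and Nr4a2 are transcription factor genes that neurons switch on in response to activity, and they were followed here over the hours after foot shock in mouse hippocampal area CA1. They were chosen by name: every probe set whose only gene symbol is one of these 4, which gave 6 probe sets of 12488 on an Affymetrix array, for 4 genes of 8251. Egr1 and Nr4a2 have 2 probe sets each, and Egr2 and Nr4a1 have 1 each. Each probe set reads RNA through several short DNA oligonucleotides, and some sets can match more than 1 transcript. The level of a probe set depends on how strongly its oligonucleotides bind, so levels are compared between times and not between genes.

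All samples came from young male C57BL/6J mice of the same treatment, which the labels call shock alone. Per the labels, the mice were put in the new chamber 2 h ahead of training and then received 3 shocks of 0.5 mA, each lasting 1 s and each preceded by 2 min in the chamber. Samples of total RNA represent 1, 2, 4 and 6 h from the last shock, with 1 array per time and 4 in all. The labels do not say how many mice went into a sample, and they state a stay of 1 h in the chamber after the last shock for all 4 times. Unshocked mice were not analysed here, and every comparison is between times after shock. With 1 array per time there is no replicate spread and no test was run; precision is limited by the small number of arrays.

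The Egr proteins are zinc finger factors that bind GC-rich DNA. Egr1, also called Zif268, is known in the hippocampus for its induction by strong synaptic stimulation and for its role in long-lasting memory, and Egr2, or Krox20, is best known for hindbrain patterning and for myelination by Schwann cells. The corepressors Nab1 and Nab2 bind Egr proteins and limit their activity. Nr4a1 and Nr4a2, also called Nur77 and Nurr1, are orphan nuclear receptors that bind DNA as monomers or with a retinoid X receptor, and Nr4a2 is needed for the identity of midbrain dopamine neurons. Kinase signals from the synapse reach genes of this kind through the factor CREB, which binds the cyclic AMP response element (CRE), and through serum response factor with its Elk partners, which bind the CArG box.

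The DNA just before the start sites of Egr2, Nr4a1 and Nr4a2, 3 of the 4 genes, was searched for those elements, and stretches that hold matches are shown; Egr1 was not searched. Sequences are from RefSeq, build GRCm38.p6, 5′ to 3′ on the strand of the gene, and the 3 genes were matched by symbol. In the first 2 sequences, 250 bases long, capitals mark the CRE half-site, TGACG or its complement CGTCA. In the third, 30 bases long, they mark the CArG box and then a half-site.

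Nr4a1, chr15:101266596-101266845, plus strand: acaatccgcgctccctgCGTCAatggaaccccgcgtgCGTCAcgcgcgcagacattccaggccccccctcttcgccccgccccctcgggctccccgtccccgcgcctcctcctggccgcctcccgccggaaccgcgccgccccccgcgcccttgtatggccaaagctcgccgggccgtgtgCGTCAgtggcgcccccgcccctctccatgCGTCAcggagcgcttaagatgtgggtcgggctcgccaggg
Nr4a2, chr2:57124004-57124253, minus strand: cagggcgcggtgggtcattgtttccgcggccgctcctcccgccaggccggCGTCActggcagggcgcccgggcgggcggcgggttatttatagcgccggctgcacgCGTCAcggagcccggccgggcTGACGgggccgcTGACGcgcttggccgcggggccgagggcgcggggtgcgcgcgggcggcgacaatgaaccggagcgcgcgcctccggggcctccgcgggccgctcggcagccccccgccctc
Egr2, chr10:67537795-67537824, plus strand: gtCCATATATGGgcagcgaCGTCAcgggta

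Nr4a1 and Nr4a2 each held 4 CRE half-sites. Windows reaching from 250 bases before a start site to 50 after it held at least 4 half-sites in 0.231% of 32851 windows, and at least 1 in 20.8%. The full CRE, TGACGTCA, contains both forms of the half-site overlapping; it was in none of the windows of the 3 genes and in 1.79% of all windows. The RefSeq table has 5 start sites for Egr2, and 4 of their windows held a CArG box, against 1.63% of all windows. Some of these windows overlap and hold the same box, so the 4 are not separate boxes. The stretch printed is shared by overlapping windows and lies 45 to 74 bases before one of those start sites. A site for Egr proteins themselves, GCGNGGGCG on either strand, was present once before Nr4a1 and once before Nr4a2, and in 5.55% of all windows. The monomer site of the Nr4a receptors, AAAGGTCA on either strand, was found in none of the windows of the 3 genes and in 1.51% of all. These matches are letters in a window and are not evidence of binding.

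**Figure D1:**
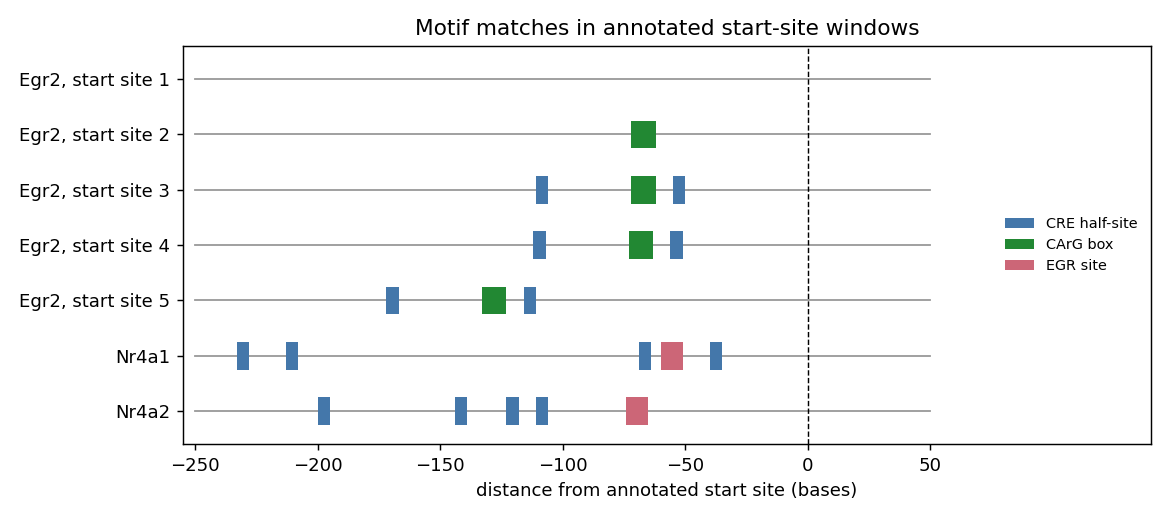
Positions of motif matches in the RefSeq start-site windows of Egr2, Nr4a1 and Nr4a2; the x axis is the distance in bases from the annotated start (dashed line), each grey line is 1 window from 250 bases before to 50 after, and coloured blocks are matches to scale. Nr4a1 and Nr4a2 hold 4 CRE half-sites each, and 4 of the 5 overlapping or neighbouring Egr2 windows hold a CArG box.

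Egr1 was highest at 2 h. On the 1, 2, 4 and 6 h arrays, in that order here and below, its bright probe set (98579_at) had intensities of 1277, 2195, 1737 and 1299 units. The level at 2 h was 1.72-fold that at 1 h and 1.69-fold that at 6 h, and the first and last arrays differed by 1.02-fold. The 4 h array was second, 1.26-fold below the 2 h array and 1.34-fold above the 6 h array, so Egr1 at 4 h lay between its highest and lowest levels. On the log2 scale the difference of 2 h from the mean of the other 3 times was 0.63, which ranks 221 of 6442 probe sets above the floor on all arrays. The floor, 100.8 units, is the 40th percentile of all values, and log2 was taken after raising lower values to it.

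The second Egr1 probe set, 161802_i_at, had intensities of 61.9, 112.8, 55.8 and 87.5 units. It was above the floor only at 2 h, which was again its highest array, and it gives no measured fold.

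Egr2 was dim, with its highest level also at 2 h. Its probe set (102661_at) had intensities of 144, 328, 32.5 and 122 units. The 2 h array stood 2.28-fold above the 1 h array and 2.69-fold above the 6 h array. The 4 h value was below the floor, so the 2 h level was at least 3.26-fold higher than at 4 h. The 1 h and 6 h arrays, 1.18-fold apart, were close to each other and near the floor. Egr2 is also expressed in myeloid cells, and of the 8 microglial and myeloid markers on the array, 5 had a mean above the floor. The summed intensity of all 8 was 6051, 5444, 5562 and 6003 units, and most of it came from Csf1r, C1qc and C1qa. Itgam and Ptprc were below the floor on all arrays, and Aif1 passed it only at 6 h, with 155 units. The part of these cells in the level of Egr2 was not tested.

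Nr4a1 stood apart at 2 h. Its probe set (102371_at) had intensities of 604, 997, 594 and 534 units. The 2 h array was 1.65-fold above the 1 h array, 1.68-fold above the 4 h array and 1.87-fold above the 6 h array. The other 3 arrays lay within 1.13-fold of each other, so that Nr4a1 at 4 h was already at the 1 h level, while Egr1 at 4 h was still 1.36-fold above its own 1 h level. The difference of 2 h from the mean of the other times was 0.79 on the log2 scale, rank 94 of 6442.

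Nr4a2 differed from the other members in order. Its bright probe set (92248_at) had intensities of 805, 713, 483 and 388 units, each below the one before. The 1 h array was 1.13-fold above the 2 h array, the smallest step, and the 2 h array was 1.48-fold above the 4 h array, the largest step. From 1 h to 6 h the difference was 2.08-fold, or −1.05 on the log2 scale. Counted from the lowest, this difference of 6 h from 1 h had rank 48 of 6442.

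The second Nr4a2 probe set (92249_g_at) followed the same order over the arrays, with 393, 303, 270 and 217 units. Its span was 1.81-fold and its rank for 6 h against 1 h was 97 of 6442. Here the largest step was the first, −0.38 on the log2 scale from 1 h to 2 h, so the probe sets share the order but not the time of the largest step. Both probe sets were designed on the same deposited sequence, so they are not independent readings of Nr4a2. In a tissue extract, fewer cells that express a gene and less of its RNA in each cell cannot be told apart.

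**Figure D2:**
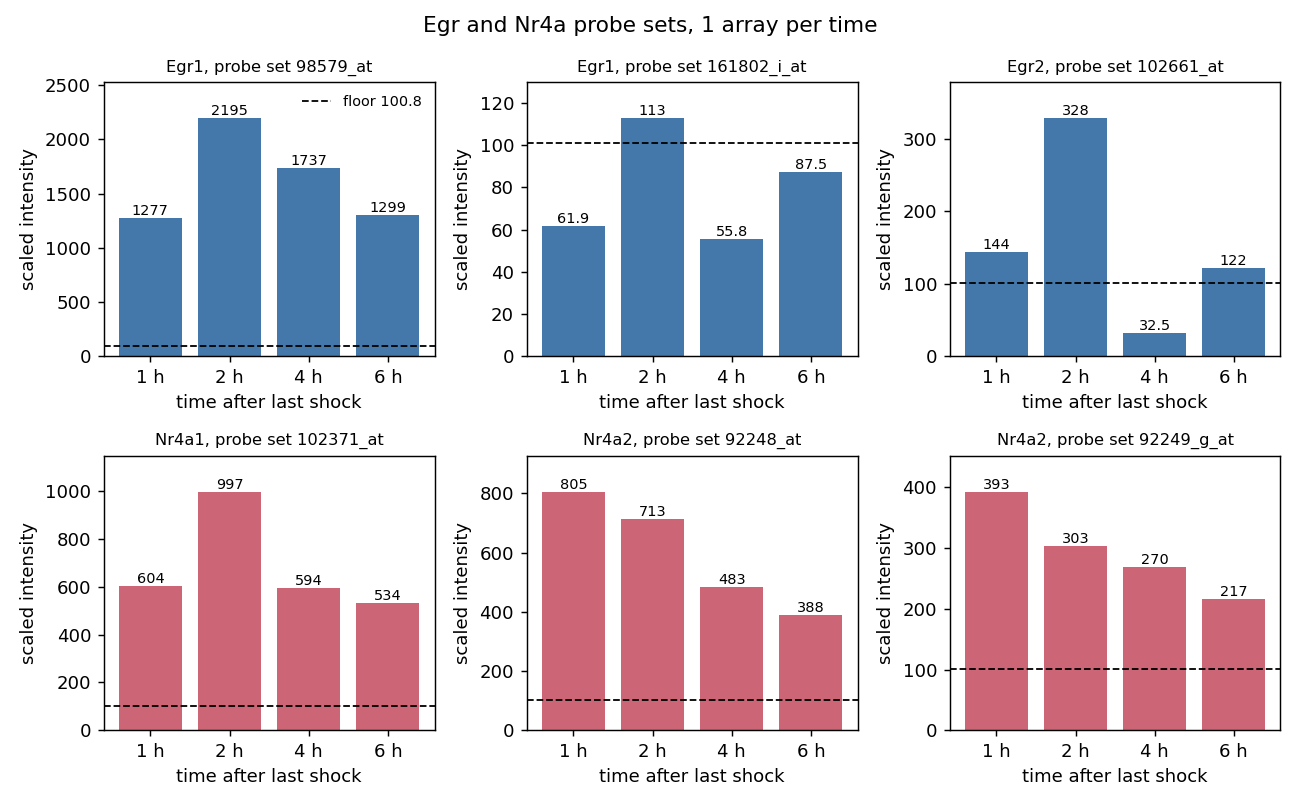
Scaled intensity (y axis, linear, from 0) of the 6 probe sets at 1, 2, 4 and 6 h after the last shock; each bar is 1 array and the dashed line is the floor of 100.8 units. Egr1, Egr2 and Nr4a1 are tallest at 2 h, and both Nr4a2 probe sets descend from 1 h, at 805 and 393 units, to 6 h, at 388 and 217.

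Against all probe sets, the members' differences were uncommon in size at 2 h for Egr1, Egr2 and Nr4a1 and at 6 h for Nr4a2. At 2 h over 1 h, 3 of the 5 member probe sets above the floor on both arrays were higher by at least 1.5-fold (the bright one of Egr1, and those of Egr2 and Nr4a1), where 5.59% of 6942 probe sets were. Of probe sets with a mean of at least 500 units, 1.38% were, and 2 of 3 members. Egr2 alone passed 2-fold, where 1.21% of probe sets did. Egr2 was dim, and the share was not taken among dim probe sets alone. The shares at 1.5-fold, 1.38% of bright probe sets and 5.59% of all, mean that dimmer ones passed more often. At any size, 2 of the 4 member probe sets above the floor on all arrays were highest at 2 h (the bright one of Egr1 and that of Nr4a1; Egr2 was not eligible), as were 28.7% of 6442, a share that makes the time of the maximum alone common.

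By 6 h the levels were lower than at 2 h, although Nr4a2 was already lower at 2 h than at 1 h. At 6 h over 2 h, 4 of 5 member probe sets were lower by at least 1.5-fold, all but the second of Nr4a2, where 7.12% of 6839 probe sets were. At 4 h over 2 h, 1 of 4 was, Nr4a1, where 6.95% of 6879 were; Egr2, below the floor at 4 h, is not among the 4. Scaled to the spike-in controls described below, 1 member probe set, that of Egr2, was lower by 1.5-fold at 6 h over 2 h and 0 were at 4 h over 2 h.

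By the stricter rule of standing at least 1.5-fold above each other array, Nr4a1 was 1 of 76 probe sets called at 2 h, or 1.18% of 6442. Among bright probe sets it was 1 of 7, or 0.206% of 3399. Egr1 did not meet it, since its 4 h level was within 1.26-fold of its 2 h level, and Egr2 was not eligible because its 4 h value was below the floor.

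At 6 h over 1 h, 2 of 5 member probe sets were lower by at least 1.5-fold, both of Nr4a2, where 5.82% of 6859 probe sets were. The bright Nr4a2 probe set passed 2-fold, where 0.919% did. At 4 h over 1 h that probe set was already lower by 1.5-fold, 1 of 4 members, where 5.33% of 6886 were. At any size, 3 of the same 4 member probe sets were lowest at 6 h (Nr4a1 and both of Nr4a2), and so were 26.2% of all. Steps down at each time, adding up to at least 1.5-fold, were found for both Nr4a2 probe sets and for 1.61% of 6442 probe sets. Egr1, Egr2 and Nr4a1 lay within 1.18-fold of their 1 h level at 6 h. The difference between the course of Nr4a2 and those of the other members was not tested.

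**Figure D3:**
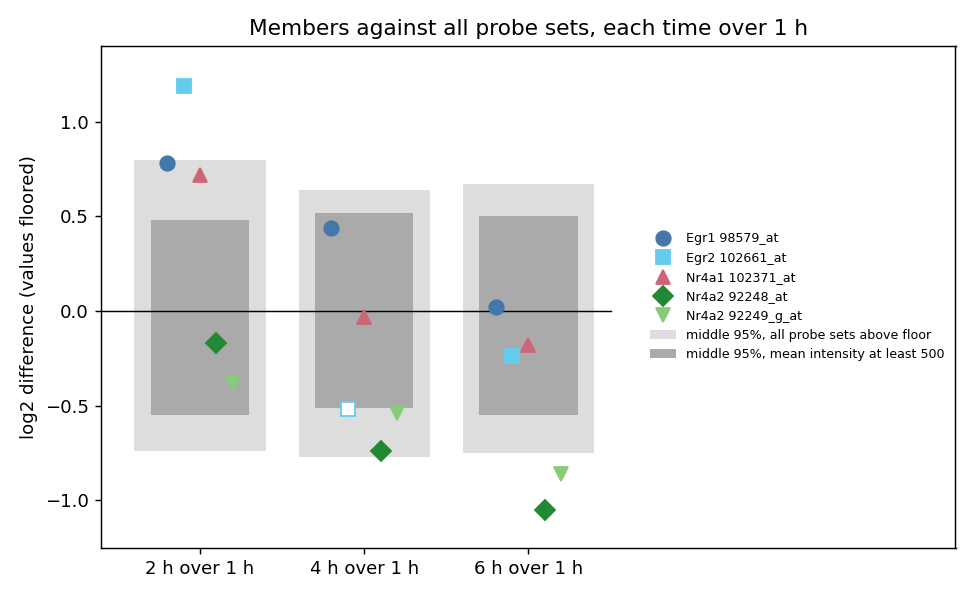
Log2 difference (y axis) of each member probe set at 2, 4 and 6 h over 1 h, with light and dark grey bars for the middle 95% of all 6442 probe sets above the floor and of the 3399 with a mean of at least 500 units. Egr2 at 1.19 lies above the light bar at 2 h, while Egr1 at 0.78 and Nr4a1 at 0.72 lie above the dark bar but within the light bar. Both Nr4a2 probe sets, at −1.05 and −0.86, lie below the light bar at 6 h. The open symbol is a value at the floor.

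Several measures of the arrays moved with these courses, and their part in the results was not tested. The 2 h array, where Egr1, Egr2 and Nr4a1 were highest, had the strongest 3′ bias: actin controls at the 3′ end read 2.70 times those at the 5′ end, against 1.74 to 1.84 elsewhere, and Gapdh controls 4.82 times, against 3.24 to 3.98. The 9 spike-in control probe sets read added control transcripts. Relative to the 1 h array, their geometric means were 1.16 (2 h), 0.94 (4 h) and 0.87 (6 h). These controls are not taken here as a measure of the RNA content of a sample. Scaled to those controls in place of the trimmed mean, which moved the median of all probe sets at 2 h over 1 h by −0.21, the log2 difference of 2 h from 1 h was 0.57 for Egr1, 0.97 for Egr2 and 0.51 for Nr4a1. By that scaling 1 member passed 1.5-fold at 2 h over 1 h and none stood apart at 2 h, Egr1 at 4 h over 1 h was 0.54 and so nearly level with 2 h, while Nr4a2 at 6 h over 1 h was −0.86.

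Among cell type markers, Nr4a2 is also a gene of claustrum, subplate and deep cortical neurons next to the hippocampus. Of 10 listed markers of those cells 5 are on the array and 4 had a mean above the floor. The summed intensity of all 5 was 3663, 3407, 2644 and 3039 units. Ccn2, a secreted matrix protein of subplate cells, read 320, 193, 105 and 167 units, and Fezf2, a factor of deep-layer projection neurons, read 2133, 2158, 1375 and 1579, both lowest at 4 h. Lxn, a protease inhibitor, read 1085, 913, 972 and 1106, and Tle4, a corepressor, read 107, 106, 86.9 and 132, both highest at 6 h, where Nr4a2 was lowest. Tle4 was below the floor at 4 h. Gnb4 was above the floor only at 4 h. All 9 endothelial and mural markers, of which 6 had a mean above the floor, summed to 1598, 1245, 1370 and 1140 units. Tek and Tie1 never passed the floor. The choroid plexus and ependymal list, 5 measured, summed to 1925, 1510, 2079 and 7868, with Ttr at 4482 units at 6 h. The part of these cells in the members' values was not tested.

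The labelled CA1 tissue was set against its markers, of which 5 of 10 listed had a mean above the floor. Wfs1 read 1709, 1637, 2608 and 2205 units and Neurod6 768, 648, 1263 and 1089, both lowest at 2 h, where Egr1, Egr2 and Nr4a1 were highest, and higher at 4 and 6 h, where Nr4a2 was lower. Man1a read 984, 1149, 1217 and 1486, highest at 6 h. Its second probe set read 213, 287, 332 and 240, highest at 4 h. Pou3f1 read 484, 455, 355 and 359 and Ccn3 5130, 4762, 3915 and 4631, both highest at 1 h and lowest at 4 h. The part of these differences in the members' values was not tested. Camk2a, an abundant kinase of pyramidal neurons, was above the floor only at 1 h, by 1 of 2 dim probe sets. Of the markers of dentate granule cells and CA3, Prox1 was below the floor on all 4 arrays, while Dsp read 167, 129, 223 and 162 units and Bok 682, 705, 577 and 687, so the markers do not settle how much of those regions the samples held.

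The partners of these factors varied less than the factors. Nab1 read 685, 750, 724 and 802 units from 1 to 6 h, highest at 6 h, and Nab2, an Egr-induced corepressor, read 568, 500, 500 and 536, highest at 1 h. Neither was highest at 2 h with Egr1. The retinoid X receptor Rxra read 559, 536, 590 and 601 units, and its second probe set 231, 207, 197 and 254. Rxrb read 1832, 1869, 2380 and 1497, highest at 4 h and lowest at 6 h, while Rxrg stayed under the floor throughout. The list of Egr and Nab genes thus had 2 of its 4 measured genes highest at 2 h, both of them members. The list of Nr4a and retinoid X receptor genes had 1 of 4, the member Nr4a1. Of all genes, 29.2% were highest at 2 h. Egr3, Egr4 and Nr4a3 were not analysed here.

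Upstream transcription factors and coactivators were not raised together at 2 h. Of 6 measured transcription factors and coactivators, 2 were higher at 2 h than their mean over 1, 4 and 6 h, and the median log2 difference was −0.12. Over all 5671 genes whose mean passed the floor that median was 0.02, and 52.4% were higher. Elk1, which binds with serum response factor, read 182, 162, 214 and 135 units, highest at 4 h. Crem, a relative of CREB, read 264, 228, 233 and 177, and its second probe set 150, 148, 149 and 65.0, both lowest at 6 h. The second was below the floor at 6 h. The coactivator Crebbp read 1011, 1049, 1438 and 1230, and Mef2d, an activity-regulated factor of neurons, read 4847, 5094, 5991 and 5929. Creb1 gave no usable level, since each of its 3 probe sets was below the floor on at least 2 arrays.

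Of the upstream kinases, 4 were measured, and by the same difference all 4 were higher at 2 h, by a median of 0.11 and none by 1.5-fold. That median was 0.03 with the arrays scaled to a common median and −0.2 scaled to the spike-in controls. Map2k2, a kinase of the MAP kinase cascade, read 650, 577, 451 and 471 units, and its relative Map2k1 2812, 2716, 2542 and 2743. The protein kinase A subunit gene Prkaca read 1552, 1939, 1676 and 2237, highest at 6 h, and Prkacb 4205, 4385, 4205 and 3805.

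Of 14 other immediate early transcription factors measured, 11 were highest at 2 h, against 29.2% of all genes, and the median difference of 2 h from the other times was 0.32. Most of these maxima were small: 1 of the 14, Fos, passed 1.5-fold over the other times, and Per1, a clock gene, read 445 units at 2 h beside 441 at 1 h. Scaled to the spike-in controls, 2 of the 14 were highest at 2 h, against 6.75% of all genes, and the list median was 0.01. Fos, a subunit of the AP-1 factor and the gene of this list with the largest range, stood 1.69 above the other times on the log2 scale, more than Egr1 or Nr4a1; the 1.44 of Egr2 is a lower bound, since its 4 h value was raised to the floor. Klf4, a zinc finger factor, read 117, 161, 144 and 89.4 units, the last of these below the floor. The second probe sets of Fos and Klf4 were below the floor on all arrays. Mafk, a small Maf protein, read 451, 426, 332 and 272, lower at each later time as Nr4a2 was, and 1 of the 2 Junb probe sets was highest at 2 h with 565 units and lowest at 6 h with 331. The second was also highest at 2 h, with 319 units, but lowest at 1 h.

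Among effector genes of the immediate early class, 7 of 14 were highest at 2 h, against 29.2% of all genes, with a median of 0.18. Scaled to the spike-in controls, 4 were, against 6.75% of all genes. Tiparp, a poly-ADP-ribosyltransferase, read 162, 365, 177 and 110 units, a course of the same order as that of Nr4a1 except that 4 h was above 1 h. Ptgs2, the inducible cyclooxygenase, read 110, 180, 144 and 92.3, in the order 2, 4, 1 and 6 h, and was below the floor at 6 h. Gadd45b read 425, 571, 454 and 341. The second Gadd45b probe set read 302, 452, 298 and 325, also highest at 2 h but lowest at 4 h. Inhba, an activin subunit, read 392, 235, 198 and 111, lower at each later time as Nr4a2 was.

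Genes described as targets of the members were split at 2 h and mostly lower at 4 h than at 1 h. At 4 h over 1 h, 7 of 8 measured Egr targets were lower, with a median of −0.21. So were 4 of 5 measured Nr4a targets, with a median of −0.33. Of all 5671 genes, 2884 were lower, and the median was −0.01. By 1.5-fold, 0 Egr targets were lower and 1 was higher, and 1 Nr4a target was lower and 0 were higher. Of 8 measured genes described as Egr targets, 4 were higher at 2 h, and the median was 0.03. Pmp22, a myelin protein gene that Egr2 drives in Schwann cells, read 114, 221, 178 and 130 units, in the same order as Egr1, but its second probe set never passed the floor. Pdgfb, a growth factor gene, read 111, 170, 79.5 and 92.6, with Pdgfa at 1490, 1706, 1465 and 1260. Pdgfb was below the floor at 4 and 6 h. F3, the tissue factor gene, read 640, 490, 452 and 446, lower at each later time. Of 5 measured genes described as Nr4a targets, 2 were higher at 2 h, and the median was −0.02; all 5 were lower at 6 h than at 1 h, as were 51.8% of all genes. Pomc, the precursor of stress hormones and opioid peptides, read 225, 319, 179 and 116 units, in the same order over the arrays as Nr4a1. Th and Ddc, dopamine synthesis enzymes that Nr4a2 serves in midbrain neurons, read 145, 97.0, 95.9 and 109 and 255, 174, 151 and 227, both highest at 1 h as Nr4a2 was; Th was below the floor at 2 and 4 h. Bdnf, the neurotrophin, read 3226, 3311, 3808 and 3059, highest at 4 h.

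**Figure D4:**
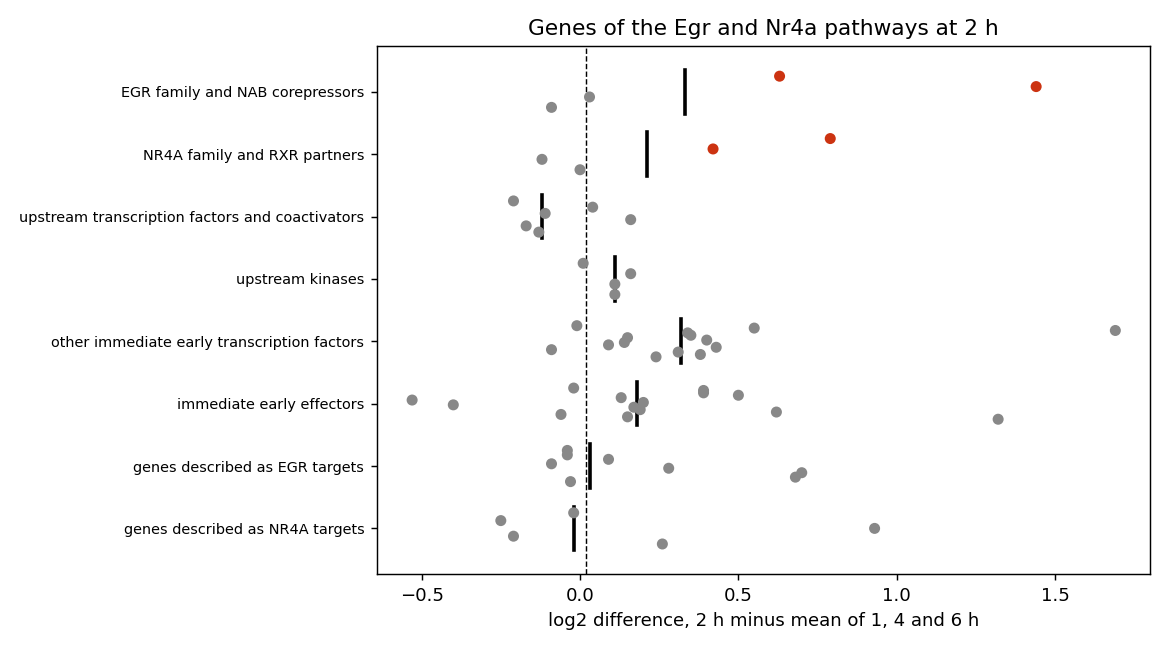
Log2 difference of 2 h from the mean of 1, 4 and 6 h (x axis) for each measured gene of 8 lists (rows); red points are the members, grey points the other genes, short black lines the list medians, and the dashed line the median of all genes, 0.02. Other immediate early transcription factors have a median of 0.32, with Fos at 1.69, while genes described as targets have medians of 0.03 and −0.02.

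Genes with the course most like each member were found by the root mean square difference of log2 values centred on their mean over the 4 arrays, among 5843 other probe sets with 1 gene symbol above the floor on all arrays. Nearest to Egr1 were Eml5, a microtubule-associated protein gene, at 170, 302, 225 and 178 units and 0.034 away, Igfbp3, which binds insulin-like growth factors, at 101, 186, 141 and 110 and 0.043 away, and Erlin1, at 233, 368, 301 and 221 and 0.045 away. Nearest to Nr4a1 were Arid3b, a DNA-binding protein gene, at 200, 304, 183 and 169 units, Hspa4l, a chaperone gene, at 615, 960, 563 and 496, and Ambra1, an autophagy regulator, at 251, 401, 267 and 228. Nearest to Nr4a2 were the calcium pump gene Atp2b2, at 555, 516, 334 and 269 units, Cmbl, at 222, 189, 140 and 107, and the receptor gene Flt3, at 583, 561, 408 and 307. Egr2 has no such list because its 4 h value was below the floor. With 4 arrays many courses look alike: 98 probe sets lay within 0.15 of Egr1, 95 of Nr4a1 and 32 of Nr4a2, and ranking by correlation over the 4 arrays in place of distance named none of these genes among the nearest 3.

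By the same measure Egr1 and Nr4a1 were 0.181 apart, which placed Egr1 at 180 of 5843 from Nr4a1. Nr4a2 was 0.366 from Nr4a1, at place 2664, although both are Nr4a receptors, and 0.471 from Egr1. The 2 probe sets of Nr4a2 were 0.164 apart. On these arrays the course of Nr4a1 was closer to that of Egr1 than to that of Nr4a2, its family member, as a description of 4 arrays.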

How the data were processed

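The deposited table holds linear intensity values for 12488 probe sets, 66 of them controls, on 4 arrays; the trimmed mean over all probe sets was already 500.3 on each. The software that made them is not given in the sources used here. Each array was scaled to an equal trimmed mean (2% off each end) over the other 12422 probe sets, with factors from 0.999 to 1.001. Values under 100.8, the 40th percentile, were raised to it before log2. Gene symbols came from the platform annotation (10833 probe sets with 1 symbol, 396 with several, 1193 with none); 10817 matched a RefSeq table by gene identifier and 0 changed. A gene's level is that of its probe set with the highest mean.

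With 1 array per time no test was run. Folds of 1.5 and 2 are called sizes, not significance. The members and lists were chosen with earlier results of these data known. Named were the members, all measured Egr, Nab, Nr4a and retinoid X receptor genes, up to 4 genes per other list by range, and the 3 most alike. Cell type markers named in the text, and Per1, Rxrg and Creb1, were chosen after their values were seen. Alternatives were other scalings, floors, fold limits and left-out arrays; spike-in scaling, and rescaling of some counts, were added after seeing the data. The steps were tested on simulated data. Software was NumPy 2.4.6 and pandas 2.3.3 under Python 3.11.15, with matplotlib 3.10.9 for plots.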

Additional observations from a re-analysis of the deposited data

How the results depend on the processing

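Without rescaling, with a common median and with quantile normalization, the log2 differences of the 4 genes at 2 h over 1 h, those of Nr4a2 at 6 h over 1 h and those of Egr1, Egr2 and Nr4a1 at 2 h over the other times kept their direction and moved by less than 0.256, the robust SD of the 4 h against the 6 h array. Spike-in scaling, added after seeing the data, gave 0.31 for Egr1, 1.16 for Egr2 and 0.48 for Nr4a1 at 2 h over the other times, with 0 members standing apart at 2 h, 1 past 1.5-fold at 2 h over 1 h, and 1 and 0 lower by 1.5-fold at 6 h and 4 h over 2 h. A floor at the 60th percentile lies above Egr2 on 3 arrays and gave 0.30 at 2 h over 1 h and 0.30 over the other times; at the 20th percentile the latter was 1.98, and 2 members stood apart. For 92249_g_at of Nr4a2 at 6 h over 1 h the 60th percentile gave −0.55. A fold limit of 2 left 0 members apart at 2 h. The bright Nr4a2 probe set missed the 2-fold limit at 6 h over 1 h with the common median (−0.97) and spike-in scaling (−0.86). Of 270 alternatives for member differences 12 changed sign, of differences no larger than 0.47, and of 136 for list medians 19 did, 9 of them under spike-in scaling; the cause was not tested. Scaling to a common median took the number of all probe sets standing 1.5-fold above each other array at 2 h from 76 to 47, spike-in scaling to 18, and floors at the 20th and 60th percentiles to 271 and 14. Near the floor, for Egr2 and the second Egr1 probe set, signal over background limits what can be read. No paired analysis was possible because each time has 1 array.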
